A study of Homo sapiens with 8 samples.

Results

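Retinoid metabolism was followed through 8 genes of the count table: DHRS9, DHRS3, RDH10, RDH11, ALDH1A3, CYP26B1, CRABP2 and RARG. They were taken by symbol and are 8 of 28518 gene rows. All 8 passed the filter on low counts, as did 14834 rows in all. They were selected on their counts in these libraries and on their place in the pathway, and which contrast prompted the choice is not stated. The differences of these genes between constructs or letters are therefore given as a description. The cells were HaCaT, an immortalised human keratinocyte line, with CARD14 knocked out in every group. CARD14 is an epithelial scaffold protein that signals to NF-kB. The cells were transfected with a plasmid for CARD14 R820W, N737H, I593T or wild type (WT), each joined through a self-cleaving peptide to eGFP, and GFP-positive cells were sorted 24 h later. Each construct had 2 libraries, B and A, with 17892608 to 24629860 counts each. The series text gives 2 independent experiments, which the letters may mark, and libraries that may come from one experiment share its handling. The labels do not say how many knockout clones were used, and untransfected cells were not analysed here.

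Retinol is turned into retinoic acid in a pair of oxidation steps. Retinol dehydrogenases make retinal, retinal reductases turn it back, and retinal dehydrogenases make retinoic acid, which cannot be turned back. Retinoic acid is carried to nuclear receptors of the RAR family, which pair with RXR on DNA, and it is removed by CYP26 hydroxylases. In epidermis, retinoic acid is known for restraining cornification and for altering keratin expression, and RARG is the main RAR of keratinocytes.

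The sequences upstream of DHRS9, DHRS3 and RARG are shown because DHRS9 and RARG carried the differences between the letters, and DHRS9 and DHRS3 have several annotated starts that a count per gene cannot tell apart. RefSeq windows on GRCh38.p14, from 250 bases before to 50 after each start, were at hand for 7 of the 8 genes, with 12 windows in all. The capitals mark the hexamers that retinoid receptors bind (the word AGGTCA, the related AGTTCA, further GGGTCA and also the word GGTTCA) and the AP-1 motif, whose letters are TGANTCA, each searched on both strands, with no overlap between the 2 kinds in these windows. The windows of 4 starts follow, each 5′ to 3′ on the gene's strand.
DHRS9 start 2, chr2:169069313-169069612, plus strand: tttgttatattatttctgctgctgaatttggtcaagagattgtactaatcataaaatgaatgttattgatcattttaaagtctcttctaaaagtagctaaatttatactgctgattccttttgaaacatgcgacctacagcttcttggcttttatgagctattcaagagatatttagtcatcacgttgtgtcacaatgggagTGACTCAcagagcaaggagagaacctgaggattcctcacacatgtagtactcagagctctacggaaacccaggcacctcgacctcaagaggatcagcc
DHRS9 start 4, chr2:169080857-169081156, plus strand: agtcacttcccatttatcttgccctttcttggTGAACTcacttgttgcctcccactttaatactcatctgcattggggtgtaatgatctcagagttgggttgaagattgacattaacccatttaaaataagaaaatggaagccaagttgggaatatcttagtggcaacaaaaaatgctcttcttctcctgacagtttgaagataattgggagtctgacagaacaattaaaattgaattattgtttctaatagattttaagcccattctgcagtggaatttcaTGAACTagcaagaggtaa
DHRS3 start 3, chr1:12596564-12596863, minus strand: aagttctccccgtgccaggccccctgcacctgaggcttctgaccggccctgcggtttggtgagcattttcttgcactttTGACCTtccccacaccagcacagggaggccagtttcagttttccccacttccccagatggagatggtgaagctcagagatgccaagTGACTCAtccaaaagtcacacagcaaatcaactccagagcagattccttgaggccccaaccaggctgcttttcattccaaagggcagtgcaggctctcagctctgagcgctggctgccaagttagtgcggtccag
RARG, chr12:53232160-53232459, minus strand: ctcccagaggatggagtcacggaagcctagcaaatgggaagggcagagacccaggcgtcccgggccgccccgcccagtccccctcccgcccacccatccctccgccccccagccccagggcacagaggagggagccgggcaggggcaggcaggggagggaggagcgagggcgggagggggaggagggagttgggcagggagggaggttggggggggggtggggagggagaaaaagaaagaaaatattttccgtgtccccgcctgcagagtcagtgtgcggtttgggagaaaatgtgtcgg

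Start 2 of DHRS9 held 1 AP-1 motif, whose left base lay at position -48 from the start, and start 4 held 2 receptor hexamers. Start 3 of DHRS3 held 1 of each kind, and start 2 of DHRS3 and the CRABP2 window held 1 hexamer each. The other 7 windows, with RARG, ALDH1A3, RDH11 and CYP26B1 among them, held neither. Among all 35116 windows of the table, 38.6% held a receptor hexamer and 7.71% an AP-1 motif. Direct repeats of the hexamer 1, 2 or 5 bases apart, the spacings that receptor pairs prefer, were in 0.131%, 0.0399% and 0.0883% of all windows and in 0 of the 12. A match describes the letters only.

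Levels are given as CPM, the usual depth-scaled counts, with TMM correction for composition. Set beside each other per kilobase of exon, the retinal reductases led. DHRS3, which turns retinal back into retinol, had 78.6 ± 17.9 CPM per kb (SD, n = 8 libraries), and RDH11, an NADPH-dependent retinal reductase, had 78.1 ± 7.54. ALDH1A3, a retinal dehydrogenase, followed at 30.1 ± 7.77 CPM per kb, and CRABP2, which delivers retinoic acid to its receptors, at 12.7 ± 4.16. RARG, at 3.99 ± 1.45 CPM per kb, DHRS9, at 3.86 ± 3.03, and RDH10, at 3.34 ± 0.355, did not differ beyond their spread, and neither did DHRS3 and RDH11. CYP26B1, a retinoic acid hydroxylase, was lowest at 0.248 ± 0.0607 CPM per kb. Exon lengths came from GENCODE release 29, and the annotation behind the counts is not given in the sources used here.

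DHRS9, a short-chain dehydrogenase that oxidises retinol and some hydroxysteroids, varied most among the 8 genes. Its highest library was 10.6 times its lowest, against 1.31 to 2.56 times for the other 7. In B the R820W library stood at 25.2 CPM, the N737H library at 13.6 and the I593T library at 19.1, against 35.4 for WT. In A the R820W library stood at 7.38 CPM, the N737H library at 3.35 and the I593T library at 3.83, against 7.97 for WT. Each variant was thus below the WT library of its own letter, and the 4 constructs had the same order in both letters. Among all genes tested, 4.27% had the same order in both letters and 9.1% had all 3 variants below WT in both.

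Within a letter, DHRS9 with N737H was at 38.5% of WT in B and 42.0% in A, and with I593T at 54.0% in B and 48.0% in A. With R820W it was at 71.0% of WT in B and 92.6% in A. The B library of every construct lay above the A libraries of all constructs, so the groups overlapped, with means of 16.3 ± 12.6 CPM (SD, n = 2) for R820W, 8.49 ± 7.27 for N737H and 11.5 ± 10.8 for I593T, against 21.7 ± 19.4 for WT. Fitted without regard to letter, the log2 fold changes against WT were -0.42 ± 1.00 (SE) for R820W, -1.35 ± 1.01 for N737H and -0.92 ± 1.00 for I593T. Their 95% intervals were -2.72 to 1.88, -3.68 to 0.97 and -3.23 to 1.38. These SEs and intervals take in the gap between the letters. With a term for the letter, edgeR gave -0.31 ± 0.18 (SE) for R820W, -1.32 ± 0.19 for N737H and -0.96 ± 0.19 for I593T. The 95% intervals of that fit were -0.74 to 0.13, -1.77 to -0.87 and -1.40 to -0.52. None of these edgeR values passed at an adjusted p under 0.05. DESeq2 with a term for the letter called DHRS9 for N737H against WT (DESeq2 adjusted p = 0.000945), but not for R820W or I593T. Whether N737H passed thus depended on the method. In the fit without regard to letter, leaving out WT replicate B, so that the A library is the only WT, turned the values to 1.02, 0.09 and 0.52. Without WT replicate A they were -1.13, -2.06 and -1.63. Both refits set variants of both letters against WT of a single letter. The letter gap of DHRS9 therefore moves these values up or down whatever the construct does, and they do not test the difference within a letter.

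CARD14 RNA, which checks the plasmid, was at 144% of WT in B and 106% in A with R820W, at 103% and 39.4% with N737H, and at 143% and 44.3% with I593T. Unlike the other levels, the marker sums are CPM without TMM correction. The summed level of 8 keratinocyte markers was 4957 to 5485 CPM with R820W, 3665 to 3964 with N737H and 4046 to 4345 with I593T, against 4312 to 4898 with WT. The part of CARD14 level and of the markers in the DHRS9 difference was not tested. In bulk RNA, fewer cells that express a gene and less RNA per cell cannot be told apart. Markers of other cell types were low in every library, with summed levels of at most 2.12 CPM for 6 fibroblast, 3.19 for 4 melanocyte, 0.812 for 4 leukocyte and 3.07 for 4 endothelial genes.

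**Figure D1:**
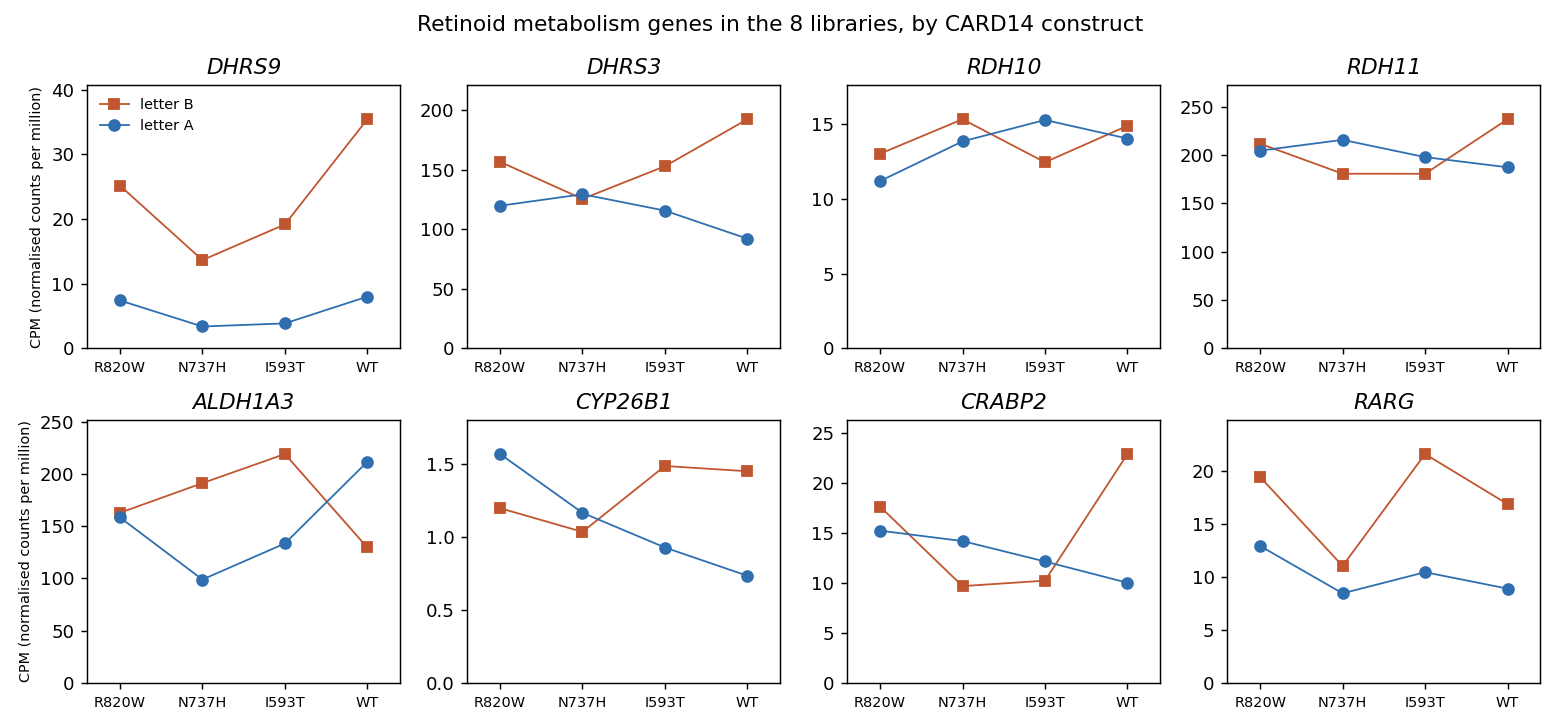
Level of each of the 8 genes in CPM (y axis, linear, from 0) by CARD14 construct (x axis), with 1 point per library, orange squares for letter B and blue circles for letter A, and lines that join libraries of a letter. DHRS9 lies higher in all 4 B libraries (13.6 to 35.4 CPM) than in all 4 A libraries (3.35 to 7.97 CPM) and has the same order of constructs in both.

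RDH10, the retinol dehydrogenase that embryos need to make retinoic acid in mice, was the steadier of the retinol-oxidising pair, at 11.2 to 15.4 CPM in all 8 libraries. It averaged 12.1 ± 1.29 CPM with R820W (SD, n = 2), 14.6 ± 1.05 with N737H and 13.9 ± 2.01 with I593T, against 14.5 ± 0.606 with WT. Its log2 fold change with R820W was -0.26 ± 0.20 (SE), and with N737H and I593T 0.01 ± 0.20 and -0.06 ± 0.20.

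The reductases DHRS3 and RDH11 took opposite sides of WT in the letters. DHRS3 was at 156 CPM (R820W), 125 CPM (N737H) and 153 CPM (I593T) in B, against 192 with WT, and at 120, 129 and 115 CPM in A, against 91.9 with WT. All 3 variants were thus below the B library of WT and above its A library. RDH11 moved less, at 212 CPM (R820W), 181 CPM (N737H) and 181 CPM (I593T) in B, against 237 with WT, and at 205, 216 and 198 in A, against 187 with WT. Over both letters the log2 fold changes of these genes against WT ran from -0.17 to -0.03, each smaller than its SE of 0.17 to 0.33.

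ALDH1A3, which oxidises retinal to retinoic acid, crossed WT the other way. It was at 163 CPM (R820W), 191 CPM (N737H) and 219 CPM (I593T) in B, against 130 with WT, and at 158, 99.0 and 133 CPM in A, against 212 with WT. Variants were above WT in B and below it in A, by up to 0.76 and 1.10 on the log2 scale. The fitted log2 fold changes over both letters were -0.09 ± 0.37 (SE), -0.23 ± 0.37 and 0.05 ± 0.37.

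CRABP2, the carrier of retinoic acid to RAR, was at 17.7 CPM (R820W), 9.69 CPM (N737H) and 10.2 CPM (I593T) in B, against 22.9 with WT. In A it was at 15.2, 14.2 and 12.2 CPM, against 10.0 with WT. It followed DHRS3 in this, with every variant below WT in B and above it in A. CYP26B1, which starts the breakdown of retinoic acid, rested on 22, 21 and 30 counts with R820W, N737H and I593T in B, against 30 with WT, and on 38, 24 and 23 counts in A, against 16 with WT. At this depth its log2 fold changes of 0.35, 0.01 and 0.14 had 95% intervals that reached from -1.18 to 1.52.

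RARG, the retinoic acid receptor, was at 19.4 CPM (R820W), 11.0 CPM (N737H) and 21.6 CPM (I593T) in B, against 16.8 with WT, and at 12.9, 8.44 and 10.4 CPM in A, against 8.88 with WT. R820W and I593T were above WT in both letters and N737H was below it in both. The groups overlapped, with means of 16.1 ± 4.60 CPM (SD, n = 2), 9.73 ± 1.83 and 16.0 ± 7.88, against 12.9 ± 5.63 for WT. The log2 fold change of R820W over N737H was 0.73 ± 0.43 (SE, 95% interval -0.26 to 1.72), and that of N737H over I593T -0.72 ± 0.43.

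**Figure D2:**
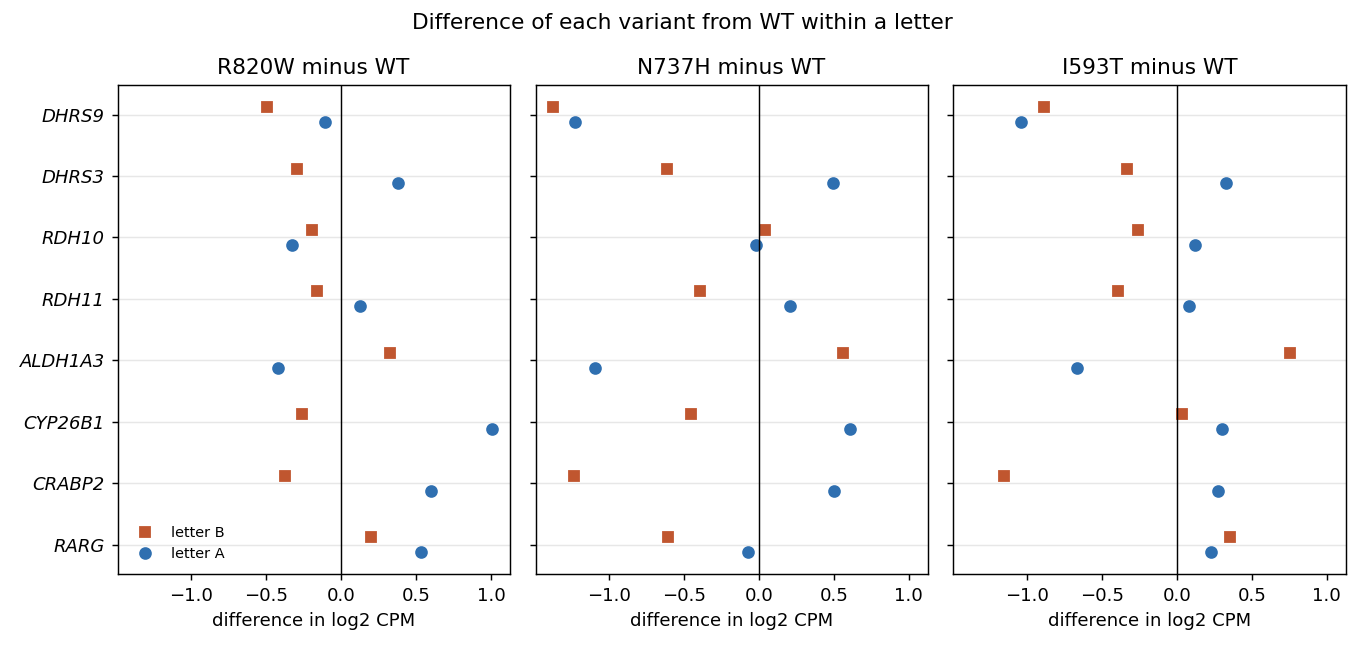
Difference in log2 CPM between a variant and WT (x axis) for each of the 8 genes (y axis), in 1 panel per variant, with orange squares for letter B and blue circles for letter A. The 6 DHRS9 points lie left of 0, and those of DHRS3, RDH11, ALDH1A3 and CRABP2 lie on opposite sides of 0 in the letters.

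Counted over the 8 genes, DHRS9 and RDH10 were below WT in both letters with R820W, DHRS9 and RARG with N737H, and DHRS9 alone with I593T. Among all genes tested, 24.6%, 22.6% and 26.3% were below WT in both. RARG was above WT in both letters with R820W, no gene of the 8 with N737H, and CYP26B1 and RARG with I593T, against 22.9%, 16.7% and 20.9% of all genes. All 3 variants were below WT in B and above it in A for DHRS3, RDH11 and CRABP2, and the reverse for ALDH1A3, against 14.4% and 11.2% of all genes. Each such pattern rests on 1 WT library per letter. The change between the letters in the difference of variants from WT was fitted with the 3 variants of a letter pooled as if replicates. The spread in that fit is the spread among variants, so no test is drawn from it.

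With edgeR's quasi-likelihood test, 0 of the 8 genes passed in each of the 7 comparisons between constructs, where the share of all genes called was 0%. These were each variant against WT, the mean of the 3 variants against WT, and the 3 pairs of variants. These fits leave the letter out. At an unadjusted p under 0.05 they gave 0 of the 8 genes in each and 154 to 362 of the 14834 genes. Limma voom, also without the letter, called 0 genes in each. DESeq2 without the letter called 1 gene for N737H and 2 for I593T against WT, none of them among the 8, and it called 3 for R820W against N737H and 0 in the other 4 comparisons. The median log2 fold change of the 8 against WT was -0.03 for R820W, -0.20 for N737H and -0.07 for I593T, beside -0.01, -0.03 and -0.02 over all genes. With a term for the letter, edgeR still called 0 of the 8 in each comparison. DESeq2 with that term called 20 of the 14834 genes for N737H against WT, DHRS9 among them. It called 28 for R820W against N737H and fewer in each other comparison.

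DHRS9 and RARG were higher in B than in A. DHRS9 averaged 23.3 ± 9.33 CPM in B and 5.63 ± 2.38 in A (SD, n = 4 each), and its ratio of B to A was 3.41 with R820W, 4.07 with N737H and 5.00 with I593T, against 4.45 with WT. Its log2 fold change of B over A, with the construct as covariate, was 2.06 ± 0.13 (SE, 95% interval 1.75 to 2.38). RARG averaged 17.2 ± 4.55 CPM in B and 10.2 ± 2.01 in A, higher in B in 4 of 4 constructs, with a log2 fold change of 0.74 ± 0.15. These were the 2 of the 8 genes that edgeR called, beside 3.24% of all genes, of which 1.71% were higher in B and 1.52% lower. The 4 libraries of a letter are different constructs that may come from a single experiment. The SEs, intervals and calls between letters therefore cover the spread among these libraries, not that among experiments. DHRS9 was the 1 gene of the 8 whose B libraries all lay above its A libraries, as was true of 8% of all genes, and 0 of the 8 had all A libraries above all B libraries, against 10% of all genes. The summed keratinocyte markers, without TMM correction, were at 3665 to 4957 CPM in B and 3964 to 5485 in A. The sum hides markers that differ in direction, with 3 of the 8 higher in B and 5 lower. Of these markers edgeR called PKP1 alone, which was higher in B at 144 ± 32.5 against 79.1 ± 8.81 CPM (SD, n = 4 each). CARD14 averaged 1197 ± 238 CPM in B and 815 ± 398 in A (SD, n = 4 each). The part of the markers and of CARD14 in the letter difference was not tested.

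The other 6 genes did not pass between the letters. DHRS3 had a log2 fold change of 0.45 ± 0.17 (SE), with a B to A ratio of 1.31 with R820W, 0.970 with N737H and 1.32 with I593T, against 2.09 with WT. The 95% interval was -0.34 to 0.84 for ALDH1A3, -0.56 to 1.09 for CYP26B1, -0.48 to 0.78 for CRABP2, -0.27 to 0.35 for RDH10 and -0.26 to 0.26 for RDH11. The calls between letters depended on single libraries: against 480 genes with all libraries, edgeR called 0 without R820W replicate A or B, 25 without I593T replicate A and 32 without I593T replicate B, while leaving out WT replicate A gave 965 and leaving out WT replicate B gave 1138. Without R820W replicate A or B, DHRS9 lost its call at 2.16 and 2.17 and RARG at 0.78 and 0.79. RARG also lost its call without I593T replicate A (0.63) or B (0.63).

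Other genes of the retinoid pathway, from lists of 60 genes chosen with earlier results of these data known, were all in the table, and 38 passed the filter. Against WT none of the 38 passed with any variant (0% of all genes did). With R820W 22 were higher and 16 lower, with N737H 16 higher and 22 lower, and with I593T 14 higher and 24 lower. Over all genes tested 7122 were higher and 7711 lower with R820W, 6793 and 8038 with N737H, and 6759 and 8074 with I593T. Between the letters 28 of the 38 were higher in B and 10 lower, beside 7953 and 6881 of all genes. Of the 38, 1 rose and 1 fell by the edgeR test, beside 1.71% and 1.52% of all genes. ALDH1A1, a retinal dehydrogenase like ALDH1A3, was at 12.2 CPM (R820W), 7.63 CPM (N737H) and 4.70 CPM (I593T) in B, against 13.4 with WT, and at 0.783, 1.26 and 0.805 CPM in A, against 0.321 with WT. All 4 B libraries lay above all A libraries (log2 fold change 3.50 ± 0.44 SE, edgeR adjusted p = 0.0151). The A libraries held few counts of ALDH1A1, so the size of this gap is uncertain. Its ratio of B to A was 15.6 with R820W, 6.05 with N737H and 5.83 with I593T, against 41.9 with WT. NCOA3, a coactivator of nuclear receptors, was lower in B in 4 of 4 constructs, at 87.1 ± 14.3 against 123 ± 16.9 CPM (-0.50 ± 0.09, edgeR adjusted p = 0.0404). Both calls ended without R820W replicate A or B or without I593T replicate A or B, where ALDH1A1 had 3.33 to 3.83 and NCOA3 -0.55 to -0.44. The NCOA3 call also ended without N737H replicate A (-0.56).

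By role, genes of uptake and storage were weakly covered. Of 11, 5 passed the filter, with the lipase PNPLA4 (28.8 CPM on average) and the scavenger receptor SCARB1 (24.1) highest, while the carriers RBP2 and RBP4 had no count in any library. Among other dehydrogenases and reductases 8 of 15 passed, with DHRS7 highest at 122 CPM. CYP26A1, the inducible partner of CYP26B1, had 46 counts over all 8 libraries and did not pass. CYP2S1, a cytochrome that also takes retinoic acid, averaged 38.6 CPM and FABP5, a carrier of it, 20.8. Of receptors and coregulators 11 of 12 passed, with the corepressor NCOR1 at 170 CPM and NCOA3 at 105.

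Genes known to be raised by retinoic acid in epithelia were led by the keratins KRT13 (674 CPM) and KRT19 (397). Of 13, 9 passed the filter, and 7 were higher with R820W, 3 with N737H and 2 with I593T than with WT, with median log2 fold changes of 0.10, -0.48 and -0.62. KRT13 was at 980 CPM (R820W), 504 CPM (N737H) and 645 CPM (I593T) in B, against 1100 with WT, and at 756, 519 and 466 CPM in A, against 425 with WT. Like DHRS3 and CRABP2, it was below WT in B and above it in A with each variant. Of 8 keratinocyte genes known to be lowered by retinoic acid 5 passed the filter, and 4 were higher with R820W, 4 with N737H and 3 with I593T than with WT, with medians of 0.18, 0.49 and 0.26. TGM1, a transglutaminase of the cornified envelope and the highest of them (12.2 CPM), had log2 fold changes of 0.06, -1.02 and -1.07, the last 2 opposite in sign to the medians. It too crossed WT between the letters. With R820W, N737H and I593T it was at 87.9%, 35.3% and 32.4% of WT in B, and at 175%, 109% and 113% in A. Over all genes tested the medians were -0.01, -0.03 and -0.02. Between the letters the medians were 0.54 for raised and 0.45 for lowered genes, beside 0.03 over all genes, and 0 of the 9 and 0 of the 5 passed, beside 3.24% of all genes.

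**Figure D3:**
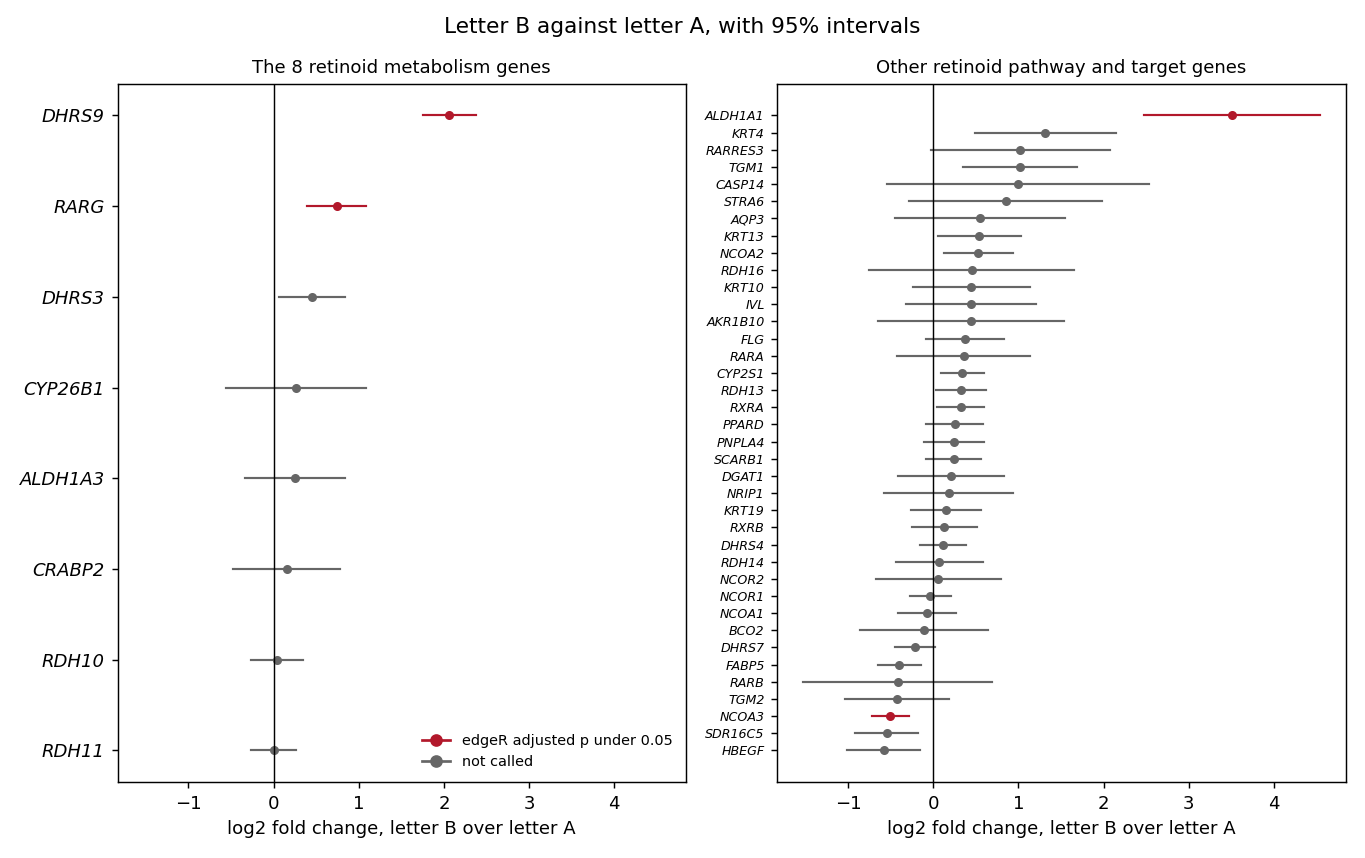
Log2 fold change of letter B over letter A (x axis) with its 95% interval (lines), for the 8 genes (left) and 38 other retinoid genes (right), red where the edgeR adjusted p was under 0.05. DHRS9 (2.06), RARG (0.74), ALDH1A1 (3.50) and NCOA3 (-0.50) are red.

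The genes with profiles nearest to DHRS9 were sought among 9577 genes with a mean of at least 5 CPM. The measure was the root-mean-square difference of log2 CPM over the 8 libraries, after each gene was centred on its own mean. The nearest was CEACAM6, a cell adhesion molecule, at 0.437, followed by CALB1, a calcium-binding protein, at 0.444, LSP1, an actin-binding protein, at 0.489, CEACAM5 at 0.512 and SERPINB3, a protease inhibitor, at 0.521. The next gene was at 0.548, and the median gene at 1.16. Because these genes were picked for likeness to DHRS9, any construct order or letter gap they share with it follows from that choice. CEACAM6 was at 70.0 CPM (R820W), 39.8 CPM (N737H) and 50.8 CPM (I593T) in B, against 88.1 with WT, and at 34.9, 11.8 and 19.0 CPM in A, against 46.8 with WT. It alone of the 5 had the order of constructs of DHRS9 in both letters, and its lowest B library lay below its highest A library. In the other 4 genes every B library lay above every A library: CALB1 ranged over 65.0 to 107 CPM in B and 25.5 to 34.1 in A, and LSP1 over 13.1 to 31.8 in B and 6.59 to 7.81 in A. CEACAM5 ranged over 14.2 to 44.6 CPM in B and 2.42 to 4.95 in A, and SERPINB3 over 18.8 to 80.1 in B and 11.3 to 18.0 in A.

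**Figure D4:**
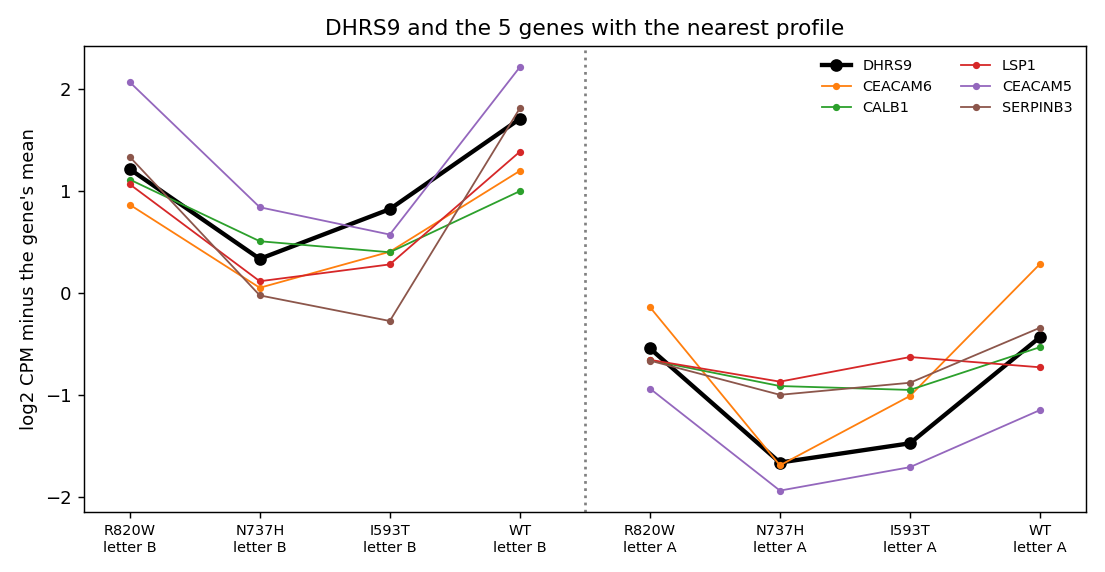
Log2 CPM minus the gene's own mean over the 8 libraries (y axis) for DHRS9 (thick black) and the 5 genes with the nearest profile, by library (x axis), letter B left of the dotted line and letter A right of it. In each letter DHRS9 and CEACAM6 are lowest with N737H and highest with WT.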

How the data were processed

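The counts used here are whole numbers of reads per gene symbol, deposited by the authors in a single table that covers the 8 libraries and holds raw values. Build hg19 and the tools FastQC, MACS2 and DESeq2 stand in the submitters' processing notes, without versions or roles. Aligner, counter, annotation and strand setting: not given in the sources used here. How reads of paralogs or overlapping genes were assigned is therefore unknown. A low-input kit was used for the libraries, per the labels' protocols.

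Of 28518 rows, edgeR 4.0.16 filterByExpr kept 14834, which held 99.9% of counts. Counts were scaled by TMM and fitted by quasi-likelihood with group means on all 8 libraries (4 residual degrees of freedom), two-sided, with Benjamini-Hochberg adjustment over all genes tested and a threshold of 0.05. The letters were compared in a fit with construct and letter. Differences within a letter use log2 CPM (prior count 2). The p-values between constructs rest on 2 libraries a group, and those between letters on 4 libraries a letter that may share an experiment. Both cover the spread of those libraries alone. In the fits without the letter, that spread takes in the difference between the letters. Whether the letters mark the 2 independent experiments is not stated, so the spread may also be technical. Every pair of libraries differed by more than sampling noise (smallest chi-square per gene 6.56). The steps were run on simulated data. For the comparison of constructs those data held no difference between the letters, so the effect of leaving the letter out was not tested there. Alternatives were RLE, other filters, DESeq2 1.42.0, limma 3.58.1 voom, fits to 2 groups at a time, a replicate block and leaving out each library. The interaction of letter and variant was added after seeing the data.

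The 8 genes and all lists were chosen with earlier results of these data known. The naming rule takes the 8 genes, CARD14, list members past the threshold, the 2 highest of a list and the 5 genes nearest to DHRS9. CYP26A1, RBP2 and RBP4, which fall outside that rule, were named after their values were seen. BCO1, PLAAT4 and LORICRIN were matched to older symbols through RefSeq synonyms.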

Additional observations from a re-analysis of the deposited data

Results flagged for a closer look

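Of the 8 genes, 4 had all 3 variants on opposite sides of WT in the letters. Among all genes tested, 14.4% had all 3 variants above WT in A and below it in B, and 11.2% the reverse. The difference of variants from WT in B minus that in A, on the log2 scale, was -0.81 for DHRS3, -0.45 for RDH11, 1.26 for ALDH1A3 and -1.34 for CRABP2. Each rests on 1 WT library per letter. The fit pooled the 3 variants of a letter as if replicates, so its spread is that among variants and no test is drawn from it. The values are a description.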

How the results depend on the processing

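Against WT, 0 genes were called for R820W, N737H, I593T and their mean. With no filter on low counts the counts were 2, 2, 8 and 2, and for R820W against N737H, R820W against I593T and N737H against I593T 8, 10 and 11. DESeq2 called 1 gene for N737H and 2 for I593T against WT and 3 for R820W against N737H. With each library left out, I593T against WT and both other comparisons with I593T ran from 0 to 2, and the mean of variants from 0 to 1. The 480 genes called between the letters became 760 with no filter, 1321 with DESeq2, 1324 with no term for the construct and 0 to 1138 with each library left out.

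With the replicate block, edgeR called 1 gene for R820W against N737H and 0 in the other comparisons of constructs. DESeq2 with the replicate block called 1, 20, 2 and 4 genes for R820W, N737H, I593T and the mean of variants against WT, and 28, 7 and 1 for the 3 pairs. DHRS9 was among the 20 for N737H (log2 fold change -1.31 ± 0.26 SE, DESeq2 adjusted p = 0.000945), while edgeR with the block gave it -1.32 ± 0.19 and an adjusted p of 0.724. At an unadjusted p under 0.05, edgeR with the block gave DHRS9 in 5 of the 7 comparisons and RARG in 2, with 313 to 670 genes in all. The common biological coefficient of variation was 0.190 with the block and 0.262 without it. The correlation of deviations from the group means was 0.312 to 0.410 for 5 of the 6 pairs of same-letter libraries and 0.0242 for N737H with WT. The first principal component, 33.3% of the variance, had all 4 B libraries above 0 and all 4 A libraries below. No label says that a letter marks a shared culture or day, and 1 pair missed the limit of 0.1 used to accept a pairing, so the fit without the letter was kept. Among 384 refitted log2 fold changes of the 8 genes against WT, 47 had the opposite sign, none of them called. CYP26B1, with 16 to 38 counts per library, is limited by depth.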
